A study of Oryza sativa with 8 samples.

Results

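The Ghd7 effect is the difference between rice plants labelled OX-Ghd7HJ19 and their wild type, and its tissue dependence is that difference in developing panicles minus that difference in young leaves. It was taken for every probe set of a rice expression array other than control and reporter ones, which left 57194 of 57381 probe sets, all 8 arrays contributing to each value. OX-Ghd7HJ19 is a transgenic line made in Hejiang 19 (HJ19), a rice variety, and HJ19 itself was the wild type. The promoter of the transgene, the number of transformants and the number of plants per sample are not given in the sources used here. The 4 groups of 2 arrays each were panicles of 0.1 cm from plants labelled OX-Ghd7HJ19, panicles of 0.1 cm from HJ19, leaves of 35-day-old OX-Ghd7HJ19 plants in the vegetative stage, and leaves of 35-day-old HJ19 plants. All plants grew in the field and were sampled 3 hours after dawn. Titles call the arrays biological replicates, while one description line shared by all samples speaks of flag leaves, which goes against their tissue labels.

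Ghd7 encodes a CCT-domain protein of rice that delays heading in long days and enlarges the panicle. It acts by lowering florigen genes of the leaf, whose protein product Hd3a moves to the shoot apex and there turns on MADS-box genes that convert the vegetative meristem to an inflorescence. Floral organs are then set out by MADS-box genes of classes B, C, D and E, YABBY genes and DL, so leaf and young panicle sit at opposite ends of the same pathway.

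Values are log2 signals after RMA, a method that corrects background, normalizes arrays and joins a probe set's probes. Array medians were 6.13 to 6.15 in panicles and 4.49 to 4.53 in leaves, so the 2 tissues did not share a common distribution and levels are not compared across them. The median standard deviation between replicate arrays was 0.10 in OX-labelled panicles, 0.07 in HJ19 panicles, 0.10 in OX leaves and 0.12 in HJ19 leaves. The tissue labels matched their markers. Of 13 measured markers of young panicle and meristem, none lay below the array median in either panicle group, whereas 10 did in OX leaves and 9 in HJ19 leaves. OSH1, a homeobox gene of the shoot meristem, lay at the 99.2 percentile of OX-labelled panicles and the 98.9 percentile of HJ19 panicles, and at the 11.3 and 16.7 percentiles of OX and HJ19 leaves. OsMADS1 lay at the 35.8 percentile of OX leaves and the 96.1 percentile of HJ19 leaves, and LOG was high in all leaves (98.6 percentile in OX leaves and 98.5 in HJ19 leaves).

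Ghd7 and its target Ehd1 are not analysed here, so the line was checked on the 64 reporter probe sets, which stand outside the tested ones. Of these, 2 separated the genotypes in leaves and not in panicles. Reporter probe set 1 read 4.50 and 4.51 in OX-labelled panicles against 4.41 and 4.57 in HJ19 panicles, and 12.18 and 14.26 in OX leaves against 5.78 and 4.35 in HJ19 leaves. Reporter probe set 2 read 3.87 and 3.91 in OX-labelled panicles against 3.64 and 3.59 in HJ19 panicles, and 11.26 and 11.45 in OX leaves against 3.56 and 3.53 in HJ19 leaves. Both arrays labelled OX thus carried a strong reporter signal in leaves, and both carried one near the wild-type level in panicles. The OX minus HJ19 difference was 8.15 and 7.81 in leaves for the 2 probe sets, and 0.01 and 0.27 in panicles. Over the other 62 reporter probe sets the leaf difference ran between -0.79 and 0.46. The files do not say what the 2 probe sets detect, and whether the panicle plants carried the same transgene was not tested. Every panicle direction below is therefore that of the arrays labelled OX-Ghd7HJ19 panicles, called OX-labelled panicles, against HJ19 panicles.

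A few transcripts set both OX groups apart from HJ19 by a wide margin. Among probe sets that changed with the same sign in both tissues, 6 exceeded a log2 change of 2 in each, all of them upward, and the next had 1.57 in the tissue of its smaller change. They fall outside the rule for named genes and were singled out after their values were seen. LOC4331398 read 13.85 and 13.98 in OX-labelled panicles against 4.50 and 4.26 in HJ19 panicles, and 10.46 and 10.37 in OX leaves against 2.63 and 2.62 in HJ19 leaves. Its rise was 9.54 in panicles and 7.79 in leaves, and 9.05 and 7.66 on a further probe set of the gene. LOC4340325 read 12.42 and 12.34 in OX-labelled panicles against 6.90 and 6.57 in HJ19 panicles, and 8.70 and 8.52 in OX leaves against 3.41 and 2.99 in HJ19 leaves. Neither gene had overlapping groups in either tissue, and their panicle and leaf calls by limma with Benjamini-Hochberg adjustment were lost in no setting tried. The tissue difference of LOC4340325 was 0.23 (adjusted p = 0.705), so its 2 rises of 5.64 and 5.41 were not told apart. One probe set paired with no gene rose by 3.78 in panicles and 7.03 in leaves, a tissue difference of -3.25 (adjusted p = 0.000619).

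The tissue difference passed an adjusted p of 0.05 (limma over all 57194 probe sets, Benjamini-Hochberg) for 2195 probe sets, 3.84% of those tested. It was positive for 1200 (2.1%) and negative for 995 (1.74%), and 1554 differed by 2-fold or more. Separately, 1652 probe sets (2.89%) passed in panicles, where 1.05% rose and 1.84% fell, and 2529 (4.42%) in leaves, where 1.37% rose and 3.05% fell. Only 110 passed in both, which is 6.66% of the panicle calls and 4.35% of the leaf calls. Across all probe sets the panicle and leaf effects had a Pearson correlation of 0.063 and a Spearman correlation of 0.054, given as a description, since probe sets of one array are not independent. Over the 22528 probe sets above the array median in a group of each tissue, the Pearson correlation was 0.103. The count of differences was 1285 and 1116 without replicate 1 and replicate 2 of OX leaves, 670 and 630 without replicate 1 and replicate 2 of HJ19 panicles, and 1209 without replicate 2 of OX-labelled panicles. Without the OX-labelled panicles no panicle effect or tissue difference can be computed, and the 4 leaf arrays alone gave 325 leaf calls.

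The calls fell into 4 patterns. Effects limited to leaves, past the threshold there and not in panicles with the tissue difference past it too, numbered 1130 probe sets (1.98%), of which 308 rose and 822 fell. Effects limited to panicles numbered 807 (1.41%), of which 244 rose and 563 fell. Opposite effects, past the threshold in both tissues with unlike signs, numbered 56 (0.0979%), and same-sign effects 54 (0.0944%). A further 2024 probe sets passed in 1 tissue without a tissue difference past the threshold, 735 in panicles and 1289 in leaves, and these are not shown to be limited to a tissue. Of the 1130 leaf-limited probe sets, 321 lay below the array median in both panicle groups and 809 did not. Of the 807 panicle-limited ones, 490 lay below the array median in both leaf groups and 317 did not. In these bulk samples fewer cells of a type and less RNA per cell cannot be told apart.

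**Figure D1:**
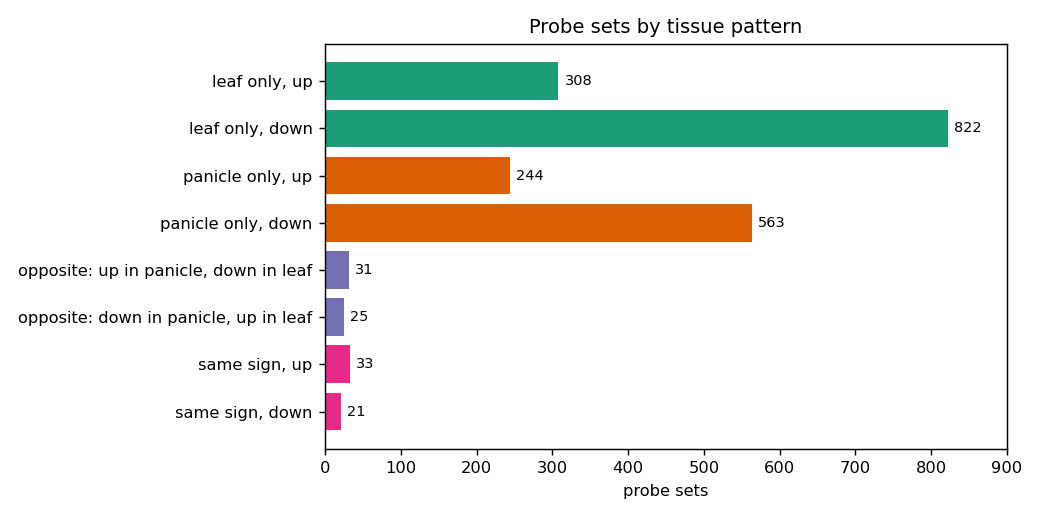
Number of probe sets (x axis) in each pattern of change between OX-labelled and HJ19 samples (y axis), by direction. Leaf-limited falls (822) and panicle-limited falls (563) are the longest bars, and the bars of effects called in both tissues hold 21 to 33 probe sets each.

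**Figure D2:**
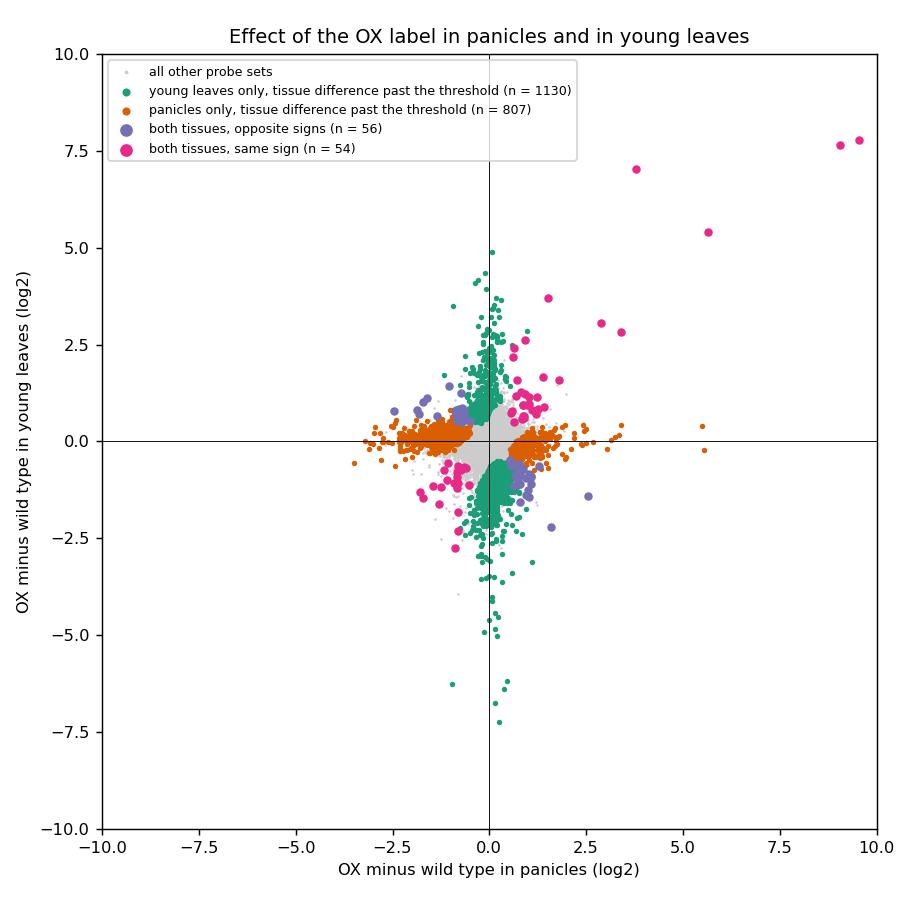
Each point is a probe set, with the OX minus HJ19 difference in panicles on the x axis and in young leaves on the y axis (log2), coloured by pattern; grey points are all others. Limited effects lie along the 2 axes, and the 6 same-sign rises above a log2 of 2 in both tissues lie at the upper right.

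Leaf-limited counts were 696 and 561 without replicate 1 and 2 of OX leaves, 361 and 333 without replicate 1 and 2 of HJ19 panicles, and 605 and 593 without replicate 1 and 2 of OX-labelled panicles. Panicle-limited counts were 453 and 421 without replicate 1 and 2 of OX leaves, 251 and 239 without replicate 1 and 2 of HJ19 panicles, and 495 without replicate 2 of OX-labelled panicles. Each of these left-out arrays leaves its group with 1 array, which is then assumed to vary like the other groups.

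Among named genes the strongest leaf-limited falls were in the florigen gene Hd3a and the MADS-box genes OsMADS14 and OsMADS1. The leaf falls of OsMADS18 and OsMADS34 were smaller, at 2.02 and 1.25. Hd3a read 4.28 and 4.20 in OX-labelled panicles against 4.26 and 3.94 in HJ19 panicles, and 4.18 and 3.50 in OX leaves against 10.60 and 10.57 in HJ19 leaves. The leaf groups were far apart and the panicle groups overlapped, both at the low end of their arrays (16.7 percentile in OX-labelled panicles and 14.0 in HJ19 panicles). The leaf effect was -6.75 (adjusted p = 1.14e-06), the panicle effect 0.14 (adjusted p = 0.839) and the tissue difference 6.89 ± 0.29 (SE, adjusted p = 3.1e-05).

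OsMADS14, which belongs to the APETALA1-like genes and marks the switch to an inflorescence meristem, had the largest difference of any probe set tested. It read 13.10 and 13.11 in OX-labelled panicles against 12.84 and 12.85 in HJ19 panicles, and 3.95 and 4.11 in OX leaves against 11.04 and 11.52 in HJ19 leaves. It was lower by 7.25 in OX leaves (adjusted p = 1.26e-07), where both signals lay below the array median and the size of the fall is limited by the low end of the arrays, while the panicle groups stood 0.26 apart (adjusted p = 0.509). The tissue difference was 7.51 ± 0.23 (SE, adjusted p = 6.08e-06), and the other 3 probe sets of the gene gave 3.98, 5.0 and 6.65, each past the threshold.

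OsMADS18, a second APETALA1-like gene, read 13.28 and 13.40 in OX-labelled panicles against 13.18 and 13.19 in HJ19 panicles, and 9.28 and 9.58 in OX leaves against 11.35 and 11.53 in HJ19 leaves. Its leaf groups were separate and its tissue difference was 2.17 ± 0.19 (adjusted p = 0.000929). OsMADS15, the closest relative of OsMADS14 in the list, did not follow: it read 4.09 and 4.20 in OX leaves against 4.29 and 4.61 in HJ19 leaves, with a tissue difference of 0.34 (adjusted p = 0.421). OsMADS34, a SEPALLATA-type gene that acts with the APETALA1-like genes, had a difference of 1.31 (adjusted p = 0.0441) from leaf signals of 2.44 and 2.23 in OX leaves against 3.22 and 3.94 in HJ19 leaves. That call was lost without either array of OX leaves, of HJ19 panicles or of OX-labelled panicles. It was also lost with the replicate number as a block, over all arrays or within each tissue, and against a 1.2-fold change (adjusted p = 0.0542 to 0.110). Over the 5 genes of the list, 3 differences were positive and past the threshold and 0 negative, where 4.07% of all 17905 genes were called higher and 2.42% lower. All 3 fell in leaves and none passed in panicles, at the adjusted or the unadjusted level, against 1.65% of genes that rose and 2.04% that fell in panicles and 2.41% that rose and 6.34% that fell in leaves. The list's median effect was 0.15 in panicles and -1.25 in leaves.

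OsMADS1, a class E floral gene, was the one member of the floral list with a positive difference past the threshold. It read 12.12 and 12.06 in OX-labelled panicles against 13.02 and 13.08 in HJ19 panicles, and 4.15 and 3.41 in OX leaves against 10.45 and 9.63 in HJ19 leaves. It was lower in both OX groups, but by 6.26 in leaves (adjusted p = 1.5e-05) and by 0.96 in panicles, where the fall did not pass (adjusted p = 0.132). The tissue difference was 5.30 ± 0.40 (adjusted p = 0.000558). The differences of Hd3a, OsMADS14, OsMADS18 and OsMADS1 passed without each single array in turn and in every other setting in which they were tested.

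Other leaf-limited falls had no common list. OsPIP2;5, an aquaporin, had a tissue difference of 4.22 ± 0.56 (adjusted p = 0.00506) and PRIN2 one of 3.61 ± 0.31 (adjusted p = 0.000837). mfs1, an AP2-type regulator of the spikelet meristem, read 11.80 and 12.24 in OX-labelled panicles against 11.17 and 11.19 in HJ19 panicles, and 5.47 and 6.57 in OX leaves against 8.37 and 8.47 in HJ19 leaves, a difference of 3.24 ± 0.42 (adjusted p = 0.00488). OsKO5, of the kaurene oxidase family, differed by 2.78 (adjusted p = 0.00369) and CLA1, named after the Arabidopsis gene for the first enzyme of plastid isoprenoid synthesis, by 2.56 (adjusted p = 0.00644). These 5 calls held without each single array. OsC3H54 differed by 2.69 (adjusted p = 0.0114), a call lost without replicate 2 of OX leaves or replicate 2 of HJ19 panicles (0.0614 to 0.0645). With the 4 leaf arrays alone, the leaf falls of OsPIP2;5, mfs1, CLA1 and OsC3H54 did not pass (adjusted p = 0.0844, 0.0705, 0.0701 and 0.105).

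Genes for ribosomal proteins, the protein part of the translation machinery, fell together in leaves at a smaller size. Of 25 measured, 13 fell in leaves and none rose, whereas none passed in panicles in either direction, also at an unadjusted p under 0.05. Over all genes 6.34% fell in leaves. Differences past the threshold were 8 higher and 0 lower, where 4.07% and 2.42% of all genes were called. At the unadjusted level 15 were higher, where 9823 of all 57194 probe sets passed in either direction. The list's median effect was -0.02 in panicles and -0.58 in leaves. RPL11 read 13.82 and 13.78 in OX-labelled panicles against 13.79 and 13.81 in HJ19 panicles, and 8.44 and 8.30 in OX leaves against 9.52 and 9.38 in HJ19 leaves, a difference of 1.08 ± 0.16 (adjusted p = 0.00978). RPL7A-2 (0.97), RPS7 (0.99) and RPS4 (0.80) followed it, and all 4 lay at or above the 99.5 percentile of both panicle groups, near the top of the arrays' range. The list held 0 differences past the threshold without either HJ19 panicle array, 4 and 3 without replicate 1 and 2 of OX leaves and 3 without either OX-labelled panicle array, with all arrays made to share one distribution, with the replicate block within each tissue and against a 1.2-fold change. Of 43 genes of iron and zinc handling, 4 differences were higher and 0 lower, where 4.07% and 2.42% of all genes were called. At the unadjusted level 12 were higher and 1 lower, beside the 9823 of 57194 probe sets given above. In leaves 8 of the 43 fell and 1 rose, where 6.34% and 2.41% of all genes did, and in panicles 1 rose and 0 fell. That count of 4 was 6 without replicate 1 of HJ19 leaves, 1 and 2 without replicate 1 and 2 of HJ19 panicles, and 2 without replicate 2 of OX leaves, without either OX-labelled panicle array and with the replicate block within each tissue. OsYSL13, of the family that carries metals bound to nicotianamine, differed by 1.89 (adjusted p = 0.00523) and the zinc transporter OsZIP4 by 1.46 (adjusted p = 0.0399), the second lost without each single array except replicate 1 of HJ19 leaves (0.0555 to 0.147).

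**Figure D3:**
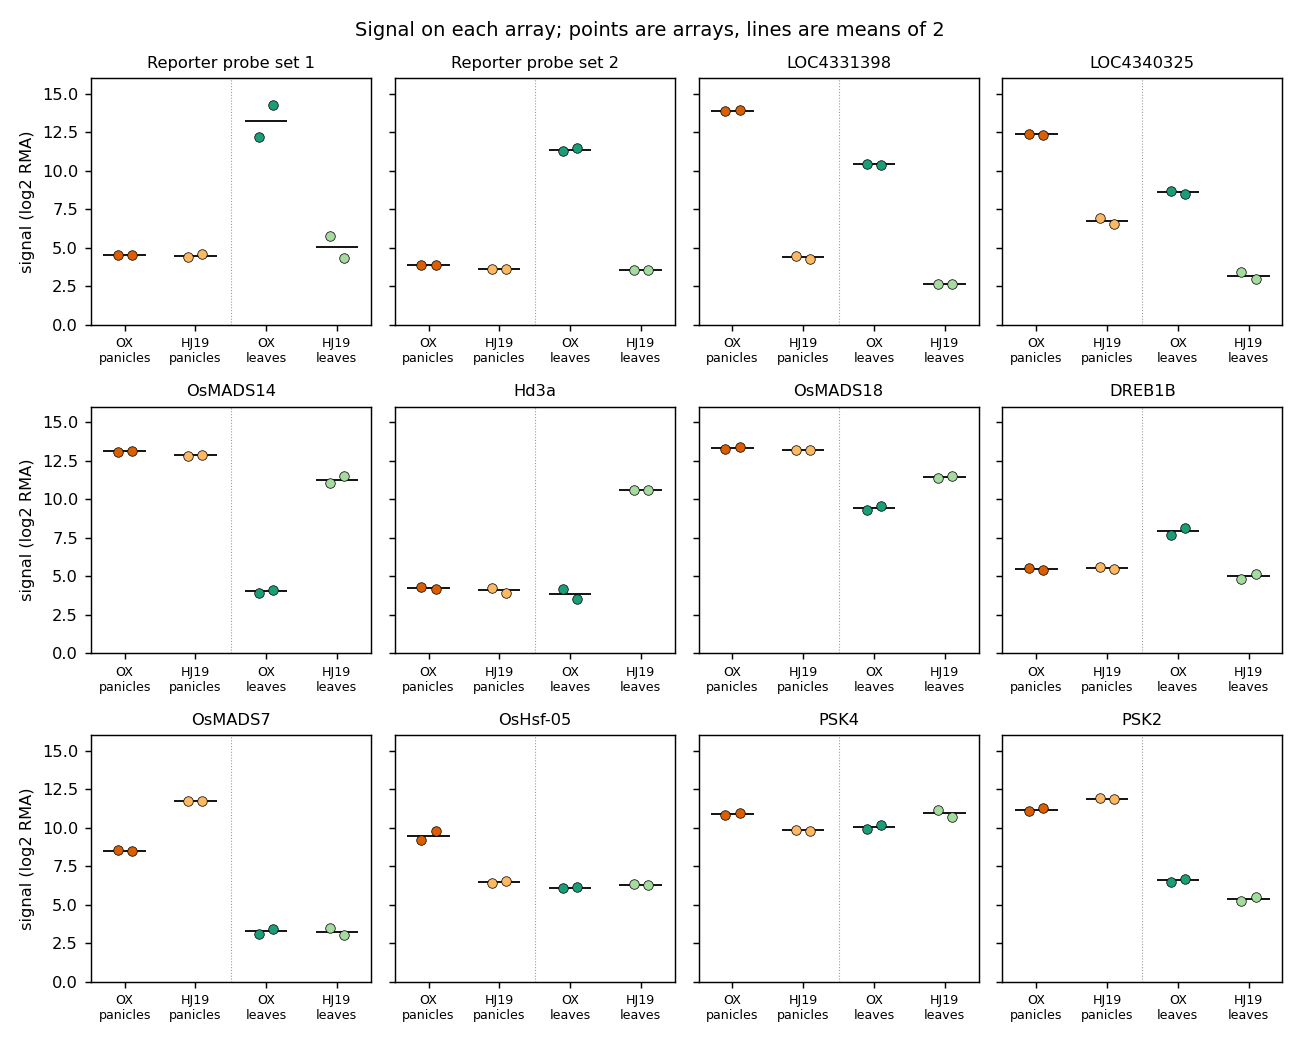
Signal (y axis, log2 RMA) on each array for 2 reporter probe sets and 10 genes, with 2 points per group and a line at their mean; panicle groups stand left and leaf groups right of the dotted line. Reporter probe sets 1 and 2 are high only in OX leaves, LOC4331398 and LOC4340325 are high in both OX groups, OsMADS14 and Hd3a are low in OX leaves, and OsMADS7 is low in OX-labelled panicles relative to HJ19 panicles.

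The largest leaf-limited rise was that of LOC4343399, outside the rule for named genes and noted after its values were seen, by 4.88, a tissue difference of -4.82 (adjusted p = 0.000342). Among named genes the rises included 3 cold-responsive DREB1 genes, transcription factors that act on drought and cold genes. DREB1G read 3.95 and 4.34 in OX-labelled panicles against 4.22 and 4.28 in HJ19 panicles, and 6.89 and 7.97 in OX leaves against 3.39 and 2.78 in HJ19 leaves. DREB1B read 5.52 and 5.40 in OX-labelled panicles against 5.59 and 5.46 in HJ19 panicles, and 7.70 and 8.13 in OX leaves against 4.85 and 5.15 in HJ19 leaves. DREB1A read 4.76 and 4.67 in OX-labelled panicles against 4.99 and 4.79 in HJ19 panicles, and 7.48 and 7.07 in OX leaves against 4.65 and 4.79 in HJ19 leaves. Leaf groups of all 3 were separate, and panicle signals of all 3 lay below the array median. Their tissue differences were -4.45 ± 0.46, -2.97 ± 0.24 and -2.73 ± 0.22 (SE; adjusted p = 0.00173, 0.00065 and 0.00069), lost in no setting in which they were tested. DREB1E rose by 0.61 in leaves (adjusted p = 0.0274) without a tissue difference past the threshold (adjusted p = 0.118), and that leaf call was lost without 5 of the 8 single arrays (0.0654 to 0.143). In the list of 5, 4 rose in leaves, none passed in panicles at the adjusted or at the unadjusted level, and 3 differences were lower, where 2.41% of all genes rose in leaves and 2.42% had a lower difference. Without single arrays 3 or 4 rose in leaves.

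Other leaf-limited rises included OsABA8ox1, an enzyme that breaks down abscisic acid. It read 5.52 and 5.28 in OX-labelled panicles against 5.29 and 5.04 in HJ19 panicles, and 7.03 and 7.31 in OX leaves against 3.94 and 3.63 in HJ19 leaves, a difference of -3.16 ± 0.24 (adjusted p = 0.000547). OsMFT1, a member of the same protein family as Hd3a, moved the other way from it in leaves. It read 5.98 and 5.60 in OX-labelled panicles against 5.86 and 5.89 in HJ19 panicles, and 7.60 and 7.86 in OX leaves against 5.22 and 4.67 in HJ19 leaves, a difference of -2.88 ± 0.28 (adjusted p = 0.00134). The calmodulin-like calcium sensors CML15 and CML31 differed by -2.55 and -2.41, and OsHsf-25, a heat shock factor, by -2.49 (adjusted p = 0.00472, 0.00134 and 0.00565). OsMADS57 differed by -2.27, KIN14K, a kinesin motor, by -1.81 and OsHox1, a homeodomain leucine zipper factor, by -1.52 (adjusted p = 0.00423, 0.00618 and 0.00309). None of these 8 calls was lost without any single array. With the 4 leaf arrays alone, the leaf rises of CML15 and OsHsf-25 did not pass (adjusted p = 0.0539 and 0.0627). Further probe sets of KIN14K gave differences of -1.18 (adjusted p = 0.0206) and -0.32 (adjusted p = 0.568).

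Panicle-limited falls were led by genes of floral organ identity. OsMADS7, a class E gene, read 8.57 and 8.47 in OX-labelled panicles against 11.75 and 11.72 in HJ19 panicles, and 3.13 and 3.40 in OX leaves against 3.52 and 3.00 in HJ19 leaves. OsMADS58, a class C gene, read 6.21 and 7.0 in OX-labelled panicles against 10.09 and 10.12 in HJ19 panicles, and 1.96 and 2.1 in OX leaves against 2.74 and 2.42 in HJ19 leaves. The panicle groups did not overlap for either gene, and the differences were -3.22 ± 0.25 (adjusted p = 0.00056) and -2.95 ± 0.33 (adjusted p = 0.00242). OsMADS8, the close relative of OsMADS7, read 9.97 and 9.81 in OX-labelled panicles against 11.93 and 11.81 in HJ19 panicles and stayed between 2.59 and 2.82 in all leaves, a difference of -2.1 ± 0.17 (adjusted p = 0.000706). OsMADS4, a class B gene, differed by -2.11 (adjusted p = 0.00492), and DL, a YABBY-type gene of the carpel and the leaf midrib, by -1.58 (adjusted p = 0.00365). In leaves OsMADS7, OsMADS8, OsMADS58 and DL lay below the array median in both groups, which limits how far a fall there can be measured. OsMADS4 lay above it, at the 73.0 percentile of OX leaves and the 70.5 percentile of HJ19 leaves, with a leaf effect of 0.20 (adjusted p = 0.681).

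The class B gene OsMADS16 differed by -1.58 (adjusted p = 0.0201) and the class C gene OsMADS3 by -1.54 (adjusted p = 0.0294). Both panicle falls passed (adjusted p = 0.00136 and 0.00641), that of OsMADS3 being lost without replicate 1 of HJ19 panicles or replicate 2 of OX-labelled panicles (0.0627 to 0.0746). The call on the difference was lost for OsMADS16 without replicate 2 of HJ19 leaves or either array of HJ19 panicles or OX-labelled panicles (0.0543 to 0.0960), and for OsMADS3 without these or replicate 2 of OX leaves (0.0760 to 0.130), and for both genes when all arrays were made to share one distribution. The class B gene OsMADS2 and the class D gene OsMADS13 fell in panicles by 0.61 and 0.80 (adjusted p = 0.0336 and 0.0341), with differences of -0.31 and -0.64 that did not pass (adjusted p = 0.407 and 0.182). The panicle call of OsMADS2 was lost without 6 of the 8 single arrays (0.0514 to 0.229) and that of OsMADS13 without each of them (0.0562 to 0.244). OsMADS17 (-1.31, adjusted p = 0.0582) and OsMADS6 (-0.63, adjusted p = 0.162), the AGL6-like pair, did not pass either. Of 14 floral genes, 7 differences were lower and 1 higher, and 9 fell in panicles while 1 fell in leaves. Over all genes 2.42% of differences were lower and 4.07% higher, 2.04% fell in panicles and 6.34% fell in leaves. The list's median effect was -1.22 in panicles and 0.03 in leaves. Leaving out an array gave 5 to 8 lower and 1 higher differences, and 6 to 8 panicle falls.

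YABBY genes, many of which act in the growth of leaf-like organs, fell in panicles beside the floral genes. Of 6 YABBY genes, 5 fell in panicles, none passed in leaves, and 4 differences were lower: OsYAB2 (-1.80, adjusted p = 0.00853), OsYAB1 (-1.59, adjusted p = 0.0188), OsYAB7 (-1.49, adjusted p = 0.00939) and OsYAB3 (-0.89, adjusted p = 0.0274). Over all genes 2.04% fell in panicles and 2.42% had a lower difference. The panicle falls of OsYAB2 and OsYAB3 were each lost without any of the 4 panicle arrays (0.0518 to 0.104 and 0.0555 to 0.186), and 2 of the 5 falls in the list passed then. At the unadjusted level 1 of the 6 was higher and 0 were lower in leaves. OsYAB2 alone was well expressed in leaves, at 9.34 and 9.35 in OX leaves against 8.43 and 9.08 in HJ19 leaves, while it read 10.17 and 10.10 in OX-labelled panicles against 11.40 and 11.29 in HJ19 panicles. The count of YABBY differences was 0 and 1 without replicate 1 and 2 of HJ19 panicles, and 2 without replicate 1 of OX leaves or of OX-labelled panicles. Of 20 germ cell and meiosis genes 1 fell in panicles, and 1 difference was lower and 1 higher. The fall was that of OsMEL1, an Argonaute of germ cells, which read 9.74 and 9.83 in OX-labelled panicles against 11.51 and 11.44 in HJ19 panicles, and between 3.53 and 4.02 in all leaves, a difference of -1.72 (adjusted p = 0.00985, and 0.0505 and 0.0551 without single HJ19 panicle arrays). OsHox8, a homeodomain leucine zipper gene, differed by -1.71 (adjusted p = 0.00554), held without each array. OsMADS56, a SOC1-like gene, differed by -1.11 (adjusted p = 0.0126), lost without replicate 2 of OX leaves or either HJ19 panicle array (0.0556 to 0.0700).

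Markers of leaf tissue changed in both tissues. Of 6 photosynthesis genes, 4 fell in panicles and none passed in leaves at either level, with 2 differences lower, where 2.04% of all genes fell in panicles and 2.42% had a lower difference. OsrbcS, the small subunit of Rubisco, read 8.51 and 7.97 in OX-labelled panicles against 9.51 and 9.66 in HJ19 panicles, and 14.32 to 14.35 in all leaves, where the signal is near the top of the range. Its difference was -1.34 (adjusted p = 0.0175) and that of GOS5 -0.73 (adjusted p = 0.0488). Further probe sets of OsrbcS gave differences of -0.67, 0.13 and 0.27 that did not pass (adjusted p = 0.0903, 0.806 and 0.494). The probe set at -0.67 fell in panicles by 0.64 (adjusted p = 0.0380). The probe set at 0.13 had means of 7.93 in OX-labelled panicles and 7.90 in HJ19 panicles. RCABP69 and the light-harvesting gene LHCP fell in panicles by 1.79 and 0.94 with differences that did not pass (adjusted p = 0.0612 and 0.166). The panicle falls of OsrbcS, GOS5, RCABP69 and LHCP were each lost without at least 1 single array. They were also lost with each tissue fitted from its own 4 arrays (adjusted p = 0.0709 for OsrbcS and 0.125 for RCABP69). Genes of chlorophyll synthesis went another way. OsPORA and OsPORB, protochlorophyllide reductases, fell in leaves by 2.11 and 1.90 (adjusted p = 0.00134 and 0.00106), with panicle effects of -0.31 and -0.40 that did not pass and differences of 1.80 and 1.5 (adjusted p = 0.0182 and 0.0199). CHLH, a magnesium chelatase subunit, fell in leaves by 0.95 (adjusted p = 0.011), with a difference that did not pass (adjusted p = 0.215). The call on the difference was lost for OsrbcS without either array of OX leaves or of HJ19 panicles, and for GOS5 without each single array. The list held 4 differences past the threshold without replicate 1 of OX-labelled panicles, 1 without either HJ19 leaf array and 0 without either array of OX leaves or HJ19 panicles. Over 9 measured leaf markers the summed linear signal was 1177 to 1954 in OX-labelled panicles and 2932 to 3104 in HJ19 panicles, and 91211 to 92479 in OX leaves and 98837 to 102815 in HJ19 leaves. The largest linear falls in panicles were those of CAB2R and OsrbcS. CAB2R had a mean linear signal of 385 in OX-labelled panicles and 1072 in HJ19 panicles, and OsrbcS 303 and 767. The panicle effect of CAB2R was -1.48 and did not pass (adjusted p = 0.122). The sum over 13 panicle and meristem markers was 35219 to 36477 in OX-labelled panicles and 43725 to 44478 in HJ19 panicles, and over 6 anther and germ cell markers 4485 to 4639 in OX-labelled panicles and 6709 to 6739 in HJ19 panicles. The panicle and meristem markers did not move one way: the 7 MADS-box genes and DL were lower in OX-labelled panicles by 0.96 to 3.50, and OSH1, RFL, LAX1, FZP and LOG higher by 0.22 to 0.99. OsMEL1 carried most of the fall in the anther and germ cell sum, with a mean linear signal of 881 in OX-labelled panicles and 2841 in HJ19 panicles. The other 5 markers had panicle effects of -0.49 to 0.12 that did not pass. Among them PAIR2 had a mean linear signal of 2465 in OX-labelled panicles and 2517 in HJ19 panicles. The anther genes OsTDR and OsC6 lay below the array median in all 4 groups. The part of tissue make-up in the panicle differences was not tested.

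Panicle-limited rises were fewer. The strongest was LOC4347232, outside the rule for named genes and noted after its values were seen, at 10.72 and 10.49 in OX-labelled panicles against 5.0 and 5.10 in HJ19 panicles, and at 2.95 and 3.03 in OX leaves against 3.06 and 3.35 in HJ19 leaves. OsHsf-05, a heat shock factor, read 9.22 and 9.77 in OX-labelled panicles against 6.40 and 6.53 in HJ19 panicles, and 6.10 and 6.13 in OX leaves against 6.32 and 6.30 in HJ19 leaves. Its difference of 3.22 ± 0.24 (adjusted p = 0.000547) stood beside one of -2.49 for OsHsf-25, so 2 heat shock factors were changed in different tissues. HSP81-1, a heat shock protein of the HSP90 family, fell in panicles by 1.34, a difference of -1.74 (adjusted p = 0.00989). That difference was lost without replicate 1 of HJ19 panicles. The panicle fall itself was lost without either HJ19 panicle array and with the 4 panicle arrays alone (adjusted p = 0.0711). A second probe set of the gene had a difference that did not pass (adjusted p = 0.425). RAB16B, a dehydrin, differed by 2.18 (adjusted p = 0.0164), PBZ1, a pathogenesis-related protein, by 2.17 (adjusted p = 0.0019), OsNAS3, a nicotianamine synthase, by 1.81 (adjusted p = 0.0104), ML6 by 1.66 (adjusted p = 0.00336) and OsEXPB11, a beta-expansin of the cell wall, by 1.33 (adjusted p = 0.0196). OsHsf-05, PBZ1 and ML6 held without each array. The RAB16B call was lost without replicate 2 of HJ19 leaves or either array of OX leaves or HJ19 panicles (0.0572 to 0.0794). The OsNAS3 call was lost without replicate 1 of HJ19 panicles (0.0586), and the OsEXPB11 call without either array of OX leaves or HJ19 panicles or replicate 1 of OX-labelled panicles (0.0560 to 0.0928).

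Some genes of the panicle meristem rose in OX-labelled panicles. Of 8 measured, 4 rose in panicles and none fell, where 1.65% and 2.04% of all genes did, and 1 fell in leaves. Without single panicle arrays 1 or 2 rose in panicles. Differences were higher for 3 and lower for 0, where 4.07% and 2.42% of all genes were called, and of the 3 only OsSPL14 and LOG were panicle-limited, the third being the leaf fall of mfs1 given above. The list's median effect was 0.72 in panicles and 0.06 in leaves. OsSPL14, a promoter of panicle branching, read 13.23 and 13.28 in OX-labelled panicles against 12.21 and 12.13 in HJ19 panicles, and 3.53 and 3.40 in OX leaves against 3.24 and 3.03 in HJ19 leaves. LOG, which activates cytokinins in the meristem, read 9.72 and 9.76 in OX-labelled panicles against 8.91 and 8.96 in HJ19 panicles, and 11.36 and 11.43 in OX leaves against 11.45 and 11.27 in HJ19 leaves. The panicle groups were separate for both, and the leaf groups of LOG overlapped. Their differences of 0.76 and 0.77 were close to the threshold (adjusted p = 0.0476 and 0.0368) and were lost without each single array except replicate 2 of HJ19 leaves (0.0761 to 0.204 and 0.0595 to 0.157). The other probe set of LOG gave 0.02 (adjusted p = 0.970). FZP, which fixes spikelet identity, and FON1, a receptor kinase that limits meristem size, rose in panicles by 0.99 and 0.63 without a difference past the threshold (adjusted p = 0.0605 and 0.164). The panicle call of FZP was lost without 5 and that of FON1 without 4 of the 8 single arrays (0.0507 to 0.156 and 0.0523 to 0.175), and that of LOG without 3 (0.0548 to 0.0852). For OSH1, RFL and LAX1 no effect passed, with differences of 0.45, 0.30 and 0.42 (adjusted p = 0.189, 0.384 and 0.344). The difference of mfs1 alone of the 3 was past the threshold without each single array.

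**Figure D4:**
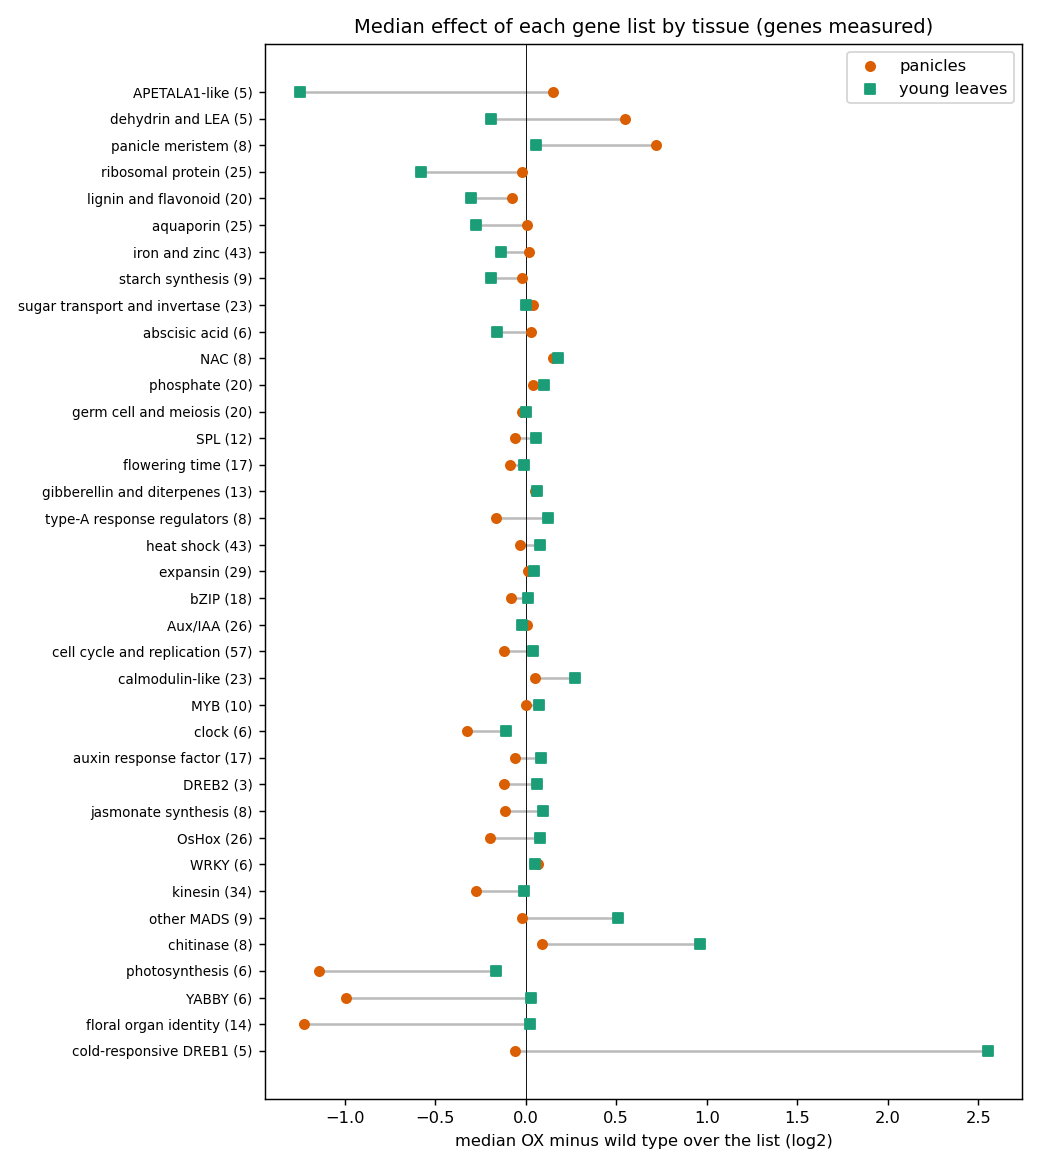
Median OX minus HJ19 difference (x axis, log2) over each of 37 gene lists (y axis, number of genes measured in parentheses), with circles for panicles and squares for young leaves, sorted by the median tissue difference. The floral, YABBY and photosynthesis lists lie lowest in panicles, and the APETALA1-like and ribosomal lists lowest and the DREB1 list highest in leaves.

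Effects of opposite sign were moderate in size. Of the 56 probe sets, 31 were up in panicles and down in leaves and 25 the reverse, and in all 56 the tissue difference passed. The median of the smaller of the 2 effects was 0.72, and 7 probe sets changed 2-fold or more in both tissues. LOC4347411 and LOC4349014 had the largest, noted after their values were seen. LOC4347411 read 14.01 and 14.14 in OX-labelled panicles against 11.58 and 11.48 in HJ19 panicles, and 7.42 and 6.94 in OX leaves against 8.99 and 8.20 in HJ19 leaves. Its rise of 2.55 in panicles was kept in every setting, and its fall of 1.41 in leaves was lost without replicate 2 of OX leaves and with 4 leaf arrays alone. LOC4349014 rose by 1.59 in panicles and fell by 2.22 in leaves, the panicle call being lost without any of the 4 panicle arrays.

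Among the 9 named genes with opposite effects were 2 precursors of phytosulfokine, a peptide hormone of cell growth. PSK4 read 10.85 and 10.93 in OX-labelled panicles against 9.84 and 9.80 in HJ19 panicles, and 9.95 and 10.17 in OX leaves against 11.18 and 10.72 in HJ19 leaves. PSK2 read 11.09 and 11.26 in OX-labelled panicles against 11.92 and 11.88 in HJ19 panicles, and 6.51 and 6.70 in OX leaves against 5.22 and 5.48 in HJ19 leaves. The 2 precursors were thus turned in opposite ways, with no overlap of groups in either tissue. PSK4 was up by 1.07 in panicles and down by 0.90 in leaves, a difference of 1.96 ± 0.23 (adjusted p = 0.00298). PSK2 was down by 0.72 in panicles and up by 1.26 in leaves, a difference of -1.98 ± 0.19 (adjusted p = 0.00133).

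Up in panicles and down in leaves were also OsPP2C59, a protein phosphatase (difference 1.35, adjusted p = 0.0102), and CML8, a calmodulin-like protein (1.17, adjusted p = 0.00765). Down in panicles and up in leaves were the cytosolic glutamine synthetase OsGLN1;2 (-1.67, adjusted p = 0.00272), the glutathione transferase GST1 (-1.61, adjusted p = 0.00132), the auxin response gene IAA31 (-1.31, adjusted p = 0.00399), the zinc finger gene OsSAP11 (-1.20, adjusted p = 0.00559) and the transcription factor OsbZIP63 (-1.03, adjusted p = 0.00921). GST1 showed the pattern most evenly, at 8.60 and 8.48 in OX-labelled panicles against 9.30 and 9.34 in HJ19 panicles, and 6.50 and 6.48 in OX leaves against 5.67 and 5.65 in HJ19 leaves. A second probe set of IAA31 gave a difference of -0.08 (adjusted p = 0.887). The panicle effect of each of the 9 genes was lost without either HJ19 panicle array. The leaf effect was lost without each single array for OsSAP11 (0.0566 to 0.150), without 7 of the 8 for OsPP2C59 (0.0786 to 0.231), without 5 for CML8 (0.0628 to 0.130) and for OsbZIP63 (0.0743 to 0.126), without 3 for OsGLN1;2, without 2 for PSK4 and IAA31 and without none for PSK2 and GST1. The differences of PSK4, PSK2, OsGLN1;2, GST1, IAA31 and OsSAP11 themselves held without each array, those of OsPP2C59 and OsbZIP63 were lost without either HJ19 panicle array (0.0503 to 0.0608) and that of CML8 without replicate 2 (0.0527). The count of opposite probe sets was 23 and 17 without replicate 1 and 2 of OX leaves, 5 without either HJ19 panicle array, 26 and 13 without replicate 1 and 2 of OX-labelled panicles, and 30 when all arrays were made to share one distribution.

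Effects of the same sign comprised 33 rises and 21 falls, and in 10 of the 54 the tissue difference also passed, 8 of them larger in leaves and 2 larger in panicles. OsChia4a, a chitinase, read 7.79 and 7.40 in OX-labelled panicles against 6.53 and 6.82 in HJ19 panicles, and 6.86 and 6.56 in OX leaves against 4.06 and 4.10 in HJ19 leaves. It rose in both tissues and more in leaves, by 0.92 in panicles and 2.63 in leaves, a difference of -1.71 ± 0.24 (adjusted p = 0.00673). OsMADS50, a SOC1-like promoter of flowering, read 10.94 and 10.82 in OX-labelled panicles against 10.31 and 10.19 in HJ19 panicles, and 9.97 and 9.91 in OX leaves against 9.50 and 9.38 in HJ19 leaves. Its rises of 0.63 and 0.50 were not told apart (difference 0.12, adjusted p = 0.775), and its leaf call was lost without each single array. OsHAK1, a potassium transporter, fell by 1.46 in panicles and 1.14 in leaves (difference -0.32, adjusted p = 0.704), and PRXIIE-2, a peroxiredoxin, by 0.82 and 1.82 (difference 1.0, adjusted p = 0.0577). The panicle calls of OsChia4a, OsMADS50, OsHAK1 and PRXIIE-2 were each lost without some single arrays and with each tissue fitted from its own 4 arrays. The leaf call of OsHAK1 was lost likewise, and the leaf calls of OsChia4a and PRXIIE-2 in no setting. A further probe set of OsHAK1 passed in neither tissue (adjusted p = 0.0607 in panicles and 0.0526 in leaves). At 2-fold or more in both tissues 16 probe sets kept the same sign. The count of same-sign probe sets was 97 without replicate 1 of HJ19 leaves, 35 and 23 without replicate 1 and 2 of OX leaves, 16 without either HJ19 panicle array, and 35 and 25 without replicate 1 and 2 of OX-labelled panicles.

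Of 17 flowering time genes, the difference passed as higher for Hd3a and as lower for OsMFT1 and OsMADS56, where 4.07% of all genes were called higher and 2.42% lower. Hd1, DTH8, Ehd3, Ehd4, Hd16, SE5, OsPHYA, OsPHYB, OsPHYC, OsGI, OsPRR37, OsLFL1 and RCN1 had no difference past the threshold. Neither had any of the 6 clock genes, of which 2 were lower at the unadjusted level. At that level 9823 of all 57194 probe sets passed in either direction. OsLFL1 fell in panicles by 1.25 (adjusted p = 0.0170), with a difference of -0.99 (adjusted p = 0.123). A further probe set of Ehd3 fell in panicles by 1.55 (adjusted p = 0.0185), with a difference that did not pass (adjusted p = 0.0783). Another probe set of Ehd3 did not pass in panicles (adjusted p = 0.299).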

How the data were processed

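Per the submitters' processing notes, the deposited log2 values were made with RMA (version not stated). RNA was biotin-labelled for Affymetrix arrays, per the labels' protocols. From the deposited log2 values, OX minus HJ19 was taken within each tissue and the tissue difference as the panicle value minus the leaf value, for 57194 probe sets, leaving out 123 AFFX and 64 reporter ones. All 3 contrasts came from one limma fit (version 3.58.1, R 4.3.3) with a mean per group of 2 arrays, 4 residual degrees of freedom, and Benjamini-Hochberg adjustment over all probe sets at 0.05. Array number limits the precision, and p-values measure the spread between these arrays. The deposited platform annotation paired 22436 probe sets with 1 gene, 95 with several and 34663 with none. Of 17905 genes, each taken at its probe set of highest mean, 2441 had a name. Named were the 10 largest differences per direction, the leading shared, opposite and limited effects, up to 4 members of each of 37 lists and every member of 4 lists. Members, lists and named genes were chosen with earlier results of these data known. On simulated data over 57194 probe sets, 18 of 100 tissue differences of log2 1 and 70 of 100 of log2 2 were recovered, with 4 false calls. All of these were rises in the OX panicle group, and no other probe set was given an effect. The data held 2195 calls, so the share recovered there can differ. Replicate numbers did not pair the arrays (correlation of deviations 0.01 in leaves and 0.06 in panicles). No array date or batch is given in the labels. Other normalizations, filters, variance models, blocks and left-out arrays were tried.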

Additional observations from a re-analysis of the deposited data

Results flagged for a closer look

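Reporter probe sets are outside the tested ones, and 2 of 64 carried a signal above the wild type: OX minus HJ19 was 8.15 and 7.81 in young leaves, against 0.01 and 0.27 in panicles. The panicle values of these 2 lie within the range of the other 62 reporter probe sets (-0.26 to 0.58). What they detect is not annotated in the files, and whether the plants of the OX-labelled panicles carried the transgene of the leaf plants was not tested.

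The effect of the OX label differed between tissues by the test of the difference itself for 2195 probe sets (limma, Benjamini-Hochberg adjusted p under 0.05). Among 63 of the genes named above that passed it, the panicle effect minus the leaf effect (log2) was positive for OsMADS14 (7.51), Hd3a (6.89), OsMADS1 (5.30), OsMADS18 (2.17), OsMADS34 (1.31), OsPIP2;5 (4.22), PRIN2 (3.61), mfs1 (3.24), OsKO5 (2.78), OsC3H54 (2.69), CLA1 (2.56), OsHsf-05 (3.22), RAB16B (2.18), PBZ1 (2.17), ML6 (1.66), OsNAS3 (1.81), OsEXPB11 (1.33), OsSPL14 (0.76), LOG (0.77), PSK4 (1.96), OsPP2C59 (1.35), CML8 (1.17), RPL11 (1.08), RPL7A-2 (0.97), RPS7 (0.99), RPS4 (0.80), OsYSL13 (1.89), OsZIP4 (1.46). It was negative for DREB1G (-4.45), DREB1B (-2.97), DREB1A (-2.73), OsABA8ox1 (-3.16), OsMFT1 (-2.88), CML15 (-2.55), CML31 (-2.41), OsHsf-25 (-2.49), HSP81-1 (-1.74), OsMADS7 (-3.22), OsMADS58 (-2.95), OsMADS8 (-2.1), OsMADS4 (-2.11), OsMADS16 (-1.58), OsMADS3 (-1.54), DL (-1.58), OsYAB1 (-1.59), OsYAB2 (-1.80), OsYAB7 (-1.49), OsYAB3 (-0.89), OsMEL1 (-1.72), OsrbcS (-1.34), GOS5 (-0.73), OsMADS56 (-1.11), PSK2 (-1.98), OsGLN1;2 (-1.67), GST1 (-1.61), IAA31 (-1.31), OsSAP11 (-1.20), OsbZIP63 (-1.03), OsChia4a (-1.71), OsMADS57 (-2.27), KIN14K (-1.81), OsHox1 (-1.52), OsHox8 (-1.71). Each group held 2 arrays, so no array was tested as standing apart from its group.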

How the results depend on the processing

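No named gene that passed changed sign in any of 19 settings, and 37 of 63 lost their call in none of the settings in which they were tested, 21 of these 37 being tested in all 19. Of 1467 alternative values for 79 genes, 1314 kept their side of the threshold, 131 lost it, 21 gained it and 1 that did not pass changed sign. None of the 2195 differences changed sign in a setting, and 617 to 1723 of them stayed past the threshold when 1 array was left out. Leaving out single arrays gave 630 to 2670 differences (298 to 1440 higher, 332 to 1230 lower), 1051 to 3292 leaf calls, 420 to 1645 panicle calls, 16 to 97 same-sign, 5 to 83 opposite, 333 to 1617 leaf-limited and 239 to 743 panicle-limited probe sets. Tested against a 1.2-fold change, the counts were 1051 differences (556 higher, 495 lower), 1010 leaf and 644 panicle calls, 17 same-sign, 5 opposite, 514 leaf-limited and 378 panicle-limited. With the replicate block over all arrays 2188 differences passed, and with the replicate block within each tissue 1467 (794 higher), 1097 panicle calls, 35 opposite and 527 panicle-limited. Only probe sets above the array medians in both tissues gave 599 lower differences, 676 panicle calls and 334 panicle-limited, and 1 probe set per gene gave 598, 726 and 385, with fewer probe sets tested. Quantile normalization of all arrays gave 30 opposite probe sets and array weights 2807 panicle calls, and the cause was not tested. With each tissue fitted from its own 4 arrays, and so fewer residual degrees of freedom, limma gave 325 leaf and 692 panicle calls, 10 same-sign, 302 leaf-limited and 486 panicle-limited, and 0 opposite ones, with 789 opposite at an unadjusted p under 0.05 in both. Signals below the array median and at the top of the range limit how far a change can be measured. The unchanged signs given above are no test of stability in most settings. Filters, variance models, blocks, array weights and the 1.2-fold test leave the estimated difference as it was. Leaving out 1 array could not change a sign where the OX minus HJ19 differences of single arrays were separate between tissues. That was so in all 1130 leaf-limited and all 807 panicle-limited probe sets.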
